A study of Mus musculus with 8 samples.

Results

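Expression of 8 genes of PPAR gamma and fatty acid uptake (Pparg, Cd36, Fabp4, Mogat1, Vldlr, Lpl, Fabp1 and Fabp2) was followed in mouse liver across 4 genotypes. The genes were chosen by name with earlier results of these data known, so counts among them give no independent support. Every probe set annotated to exactly 1 of these symbols was taken, and the probe set with the highest mean over the 8 arrays stood for its gene. This gave 18 probe sets, 0 of them shared with another gene, for 8 of the 12393 genes measured. The remaining probe sets served as a check. Total RNA from liver was hybridised to Affymetrix arrays, with 2 arrays per genotype. The genotypes were wild-type, SHP-/-, OB-/- (leptin knockout) and OB-/-/SHP-/-, which lacks both genes. All mice were labelled C57BL and ate standard chow, and the labels give no age or sex. SHP, encoded by Nr0b2, is an orphan nuclear receptor that represses other transcription factors, and leptin is the adipocyte hormone whose loss makes mice obese. The series title asks which genes SHP regulates in wild-type and in obese mice. The labels do not state whether a genotype's arrays are separate animals, so p-values measure the spread between these arrays, which may be technical.

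PPAR gamma is a nuclear receptor that binds DNA together with an RXR partner and switches on genes of lipid uptake and storage. It is best known as the master regulator of fat cells, is normally low in liver, and is known to rise in fatty livers of obese rodents. The other genes cover successive steps of lipid entry: LPL and the VLDL receptor act on circulating triglyceride-rich lipoproteins, CD36 takes up long-chain fatty acids at the cell surface, the FABP proteins bind fatty acids inside the cell, and MOGAT1 joins a fatty acid to monoacylglycerol.

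PPAR and RXR bind a pair of AGGTCA elements separated by a single base, called DR1 and searched here as AGGTCANAGGTCA on both strands. RefSeq promoters of build GRCm38.p6, reaching 250 bases before and 50 bases after a gene's start, were at hand for 6 of the 8 genes, with 9 promoters in all. Fabp4 and Lpl had none in that table. The promoters of Cd36, Mogat1 and Fabp1, 3 of the 9, held DR1 with at most 2 mismatches, as did 3.86% of 32851 mouse promoters of the same length. They are shown because Cd36 and Mogat1 had the largest differences of the 8 genes between OB-/- and wild-type and Fabp1 passed the test in no comparison. The 250 bases before each start are given 5′ to 3′ in the direction of the gene, with the closest match to DR1 in capitals.
Cd36, chr5:17835897-17836146, strand -: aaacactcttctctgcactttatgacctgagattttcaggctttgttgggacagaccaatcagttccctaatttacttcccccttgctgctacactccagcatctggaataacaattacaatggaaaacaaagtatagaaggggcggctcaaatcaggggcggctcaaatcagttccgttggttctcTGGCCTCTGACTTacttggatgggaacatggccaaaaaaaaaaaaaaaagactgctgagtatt
Mogat1, chr1:78510810-78511059, strand +: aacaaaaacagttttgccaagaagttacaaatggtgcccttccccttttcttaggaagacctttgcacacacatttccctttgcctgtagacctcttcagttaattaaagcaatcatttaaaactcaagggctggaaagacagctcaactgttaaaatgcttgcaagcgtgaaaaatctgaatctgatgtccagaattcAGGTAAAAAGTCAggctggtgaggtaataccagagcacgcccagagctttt
Fabp1, chr6:71199629-71199878, strand +: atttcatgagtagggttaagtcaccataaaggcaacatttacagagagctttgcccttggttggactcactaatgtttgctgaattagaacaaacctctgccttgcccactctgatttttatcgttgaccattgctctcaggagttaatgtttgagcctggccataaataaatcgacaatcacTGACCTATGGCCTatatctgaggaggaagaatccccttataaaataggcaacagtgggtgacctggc
The match in Fabp1 had 1 mismatch, which 0.554% of all promoters reached, and lay 67 to 55 bases before the start, on the opposite strand. Those in Cd36 and Mogat1 had 2 mismatches each. The Cd36 match lay 63 to 51 bases before the start on the opposite strand, and that of Mogat1 lay 51 to 39 bases before it on the gene's own strand. An exact DR1 stood in 0.0396% of all promoters and in 0 of these 9. A match describes the letters of the window and shows no binding, and its part in the levels of these genes was not tested.

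Values are on the log2 scale as deposited, where 1 unit is a 2-fold difference. Levels are compared only within a gene, because each probe set has its own brightness. Differences between genotypes were tested with limma across all 12393 genes, and "rose" or "fell" is written of adjusted p below 0.05 after Benjamini-Hochberg adjustment over all of them; errors of differences are standard errors. Arrays of the same genotype correlated at 0.992 to 0.995 over all genes and arrays of different genotypes at 0.972 to 0.994. Nr0b2, the gene deleted in the SHP-/- lines, read 8.74 and 8.71 in wild-type mice, 7.78 and 8.31 in SHP-/- mice, 8.01 and 8.01 in OB-/- mice, and 7.11 and 6.66 in OB-/-/SHP-/- mice. Its fall by 1.13 ± 0.19 in OB-/-/SHP-/- against OB-/- passed the test (adjusted p = 0.0108). That call was lost when either OB-/- array or OB-/-/SHP-/- replicate 2 was left out, with an adjusted p of up to 0.106. SHP-/- against wild-type differed by -0.68 ± 0.19 (adjusted p = 0.286), so the arrays labelled SHP-/- still gave signal. Where this probe set lies relative to the deleted part is not given in the sources used here, and it therefore checks the labels only in part. Albumin, the hepatocyte product, stood at 13.87 to 14.07 on every array, and the other hepatocyte markers are given with the cell type markers. OB-/- replicate 1 had Xist at 7.41 against 4.31 to 4.70 on the other arrays. The Y-linked gene Eif2s3y read 6.99 on that array and 6.57 to 7.50 on the others. The SHP-/- arrays differed from each other in the immediate early gene Fos, at 11.95 in replicate 1 and 6.98 in replicate 2. They also differed in the acute-phase gene Saa2, at 8.98 and 12.23 against 8.58 to 10.59 in the other genotypes. Results below are also given without OB-/- replicate 1 and SHP-/- replicate 1, where that ends a call. Leaving out SHP-/- replicate 2 changed 1 call of the 8 genes, the interaction of Mogat1. The gap between 3′ and 5′ probe sets, a sign of RNA quality, averaged 0.90 for Gapdh in wild-type mice. It averaged 0.27 in SHP-/- mice, -0.04 in OB-/- mice and 0.07 in OB-/-/SHP-/- mice, and for Actb 1.88, 1.30, 0.83 and 0.86 in the same order. Its part in the results was not tested.

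Leptin loss raised most of the set, which was chosen with earlier results of these data known. In OB-/- against wild-type, 6 of the 8 genes rose and 0 fell, where 7.58% of all genes rose and 9.36% fell. In OB-/-/SHP-/- against SHP-/-, which compares the same leptin loss in mice without SHP, 5 rose and 0 fell, where 4.95% of all genes rose and 5.62% fell. The median difference of the 8 genes was 1.14 and 1.01 in these comparisons, against -0.01 and 0.03 over all genes. Loss of SHP moved fewer of them. In SHP-/- against wild-type 0 rose and 1 fell (Pparg), where 0.226% of all genes rose and 0.0968% fell. In OB-/-/SHP-/- against OB-/- 0 rose and 2 fell (Fabp4 and Mogat1), where 1.26% of all genes rose and 0.880% fell. At unadjusted p below 0.05, 3 of the 8 differed in the first of these and 4 in the second, without a share of all genes at that threshold to set beside them. Against wild-type, OB-/-/SHP-/- mice had 6 of the 8 higher and 0 lower, with 7.60% and 8.25% of all genes. OB-/- against wild-type and OB-/-/SHP-/- against wild-type share the wild-type arrays. Whether the effect of SHP loss differed between mice without and with leptin, the interaction, passed the test for 0 of the 8 genes in limma and for 0.549% of all genes. At unadjusted p below 0.05, 4 of the 8 had such a difference. All shares of all genes given here are for adjusted p, so no count at unadjusted p can be read against one.

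**Figure D1:**
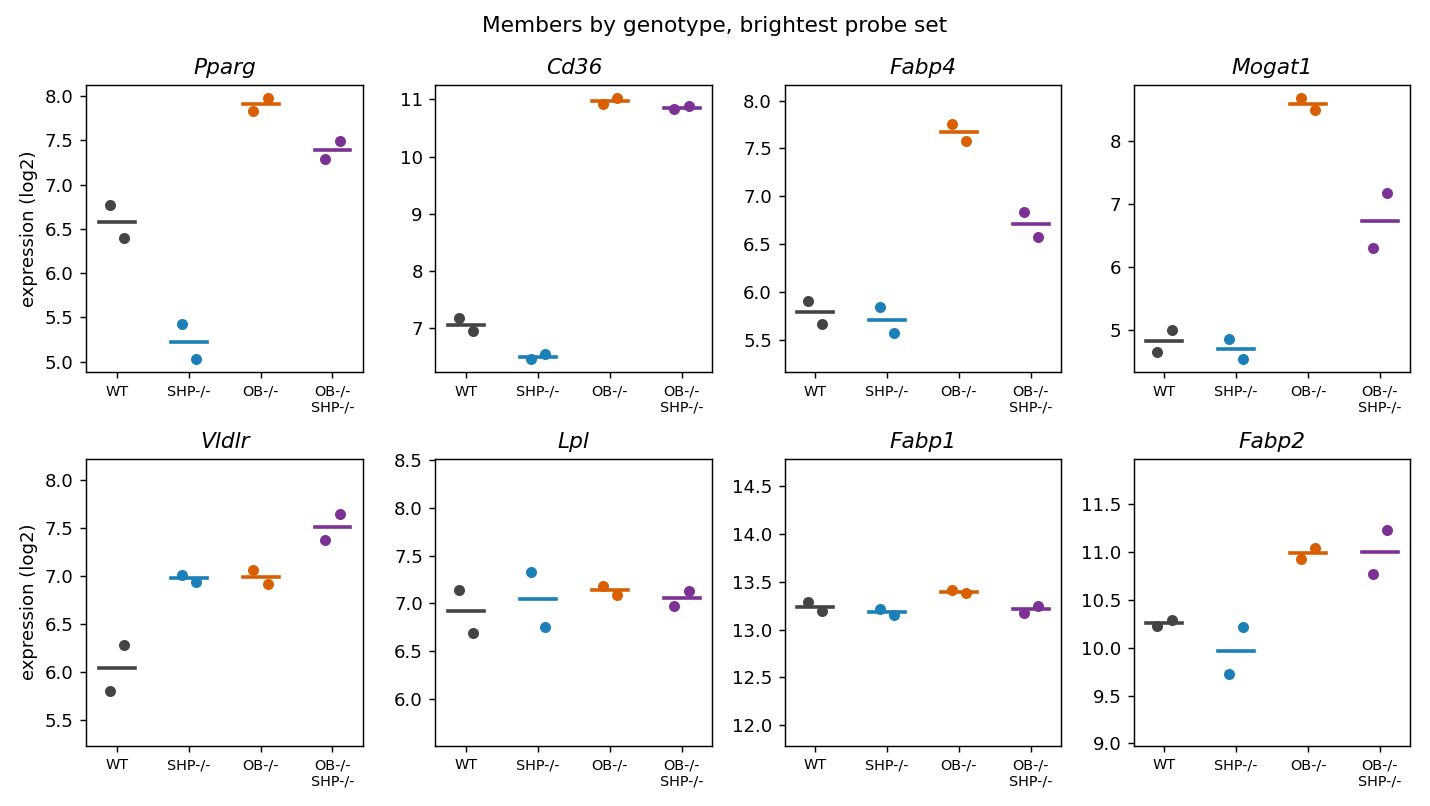
Expression (log2) of the 8 genes on each array by genotype, with points for the 2 arrays of a genotype and bars for their mean; WT is wild-type. Cd36 lies at 10.83 or above on all 4 arrays without leptin and at 7.18 or below on the other 4, while Fabp1 stays between 13.16 and 13.42.

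Pparg (probe set 1420715_a_at), the receptor itself, read 6.77 and 6.39 in wild-type mice, 5.42 and 5.03 in SHP-/- mice, 7.84 and 7.98 in OB-/- mice, and 7.29 and 7.49 in OB-/-/SHP-/- mice. The 4 genotypes did not overlap: SHP-/- was lowest, then wild-type, then OB-/-/SHP-/-, and OB-/- was highest. Pparg rose 2.51-fold with leptin loss when SHP was present (1.33 ± 0.18, limma adjusted p = 0.000544) and 4.49-fold when SHP was absent (2.17 ± 0.18, limma adjusted p = 2.3e-05). The difference between these effects was 0.84 ± 0.25 (limma adjusted p = 0.281). In mice with leptin, SHP loss lowered Pparg 2.56-fold (-1.36 ± 0.18, limma adjusted p = 0.00942), and this was the only gene of the 8 past the threshold there. Without wild-type replicate 1 that call was lost, with a limma adjusted p of 0.119. In mice without leptin the difference was -0.51 ± 0.18 (95% interval -0.90 to -0.13) and did not pass over all genes (limma adjusted p = 0.231). The highest neighbours in the order, OB-/-/SHP-/- and OB-/-, were therefore not separated by the test, while OB-/-/SHP-/- exceeded wild-type by 0.81 ± 0.18 (limma adjusted p = 0.0111). That last call was lost without wild-type replicate 2 (0.0986) or OB-/-/SHP-/- replicate 2 (0.0740). Pparg had 1 probe set, so no second probe set could check it.

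Cd36 (probe set 1423166_at), the fatty acid transporter of the cell surface, had the largest leptin-loss difference of the 8 genes in both backgrounds. It read 7.18 and 6.94 in wild-type mice, 6.46 and 6.54 in SHP-/- mice, 10.92 and 11.03 in OB-/- mice, and 10.83 and 10.88 in OB-/-/SHP-/- mice. The arrays without leptin stood far above those with leptin and lay close to each other. Cd36 rose 15.0-fold in OB-/- against wild-type (3.91 ± 0.14, limma adjusted p = 1.6e-08) and 20.4-fold in OB-/-/SHP-/- against SHP-/- (4.35 ± 0.14, limma adjusted p = 1.1e-08). Both SHP comparisons missed the threshold. With leptin the difference was -0.56 ± 0.14 (95% interval -0.87 to -0.26, limma adjusted p = 0.168), and without leptin it was -0.12 ± 0.14 (95% interval -0.42 to 0.18, limma adjusted p = 0.830). The interaction was 0.44 ± 0.19 (limma adjusted p = 0.576). Wild-type and SHP-/- were thus neighbours that the test did not separate, as were the genotypes without leptin. The other 2 Cd36 probe sets gave leptin-loss differences of 4.39 and 4.06 in OB-/- against wild-type, and both passed.

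Of the fatty acid binding proteins, Fabp4 (probe set 1417023_a_at), the form typical of fat cells, macrophages and capillaries, read 5.91 and 5.67 in wild-type mice, 5.85 and 5.57 in SHP-/- mice, 7.76 and 7.58 in OB-/- mice, and 6.84 and 6.58 in OB-/-/SHP-/- mice. Wild-type and SHP-/- arrays overlapped, OB-/- was highest and OB-/-/SHP-/- lay between. It rose 3.68-fold with leptin loss (1.88 ± 0.16, limma adjusted p = 2.7e-05) and 2.00-fold in mice without SHP (1.00 ± 0.16, limma adjusted p = 0.0032). SHP loss changed it by -0.08 with leptin (95% interval -0.44 to 0.27, limma adjusted p = 0.967). Without leptin Fabp4 fell 1.95-fold with SHP loss (-0.96 ± 0.16, limma adjusted p = 0.00941). The interaction of -0.88 ± 0.23 did not pass (limma adjusted p = 0.188). The fall in mice without leptin was the least settled of the Fabp4 results. Leaving out OB-/- replicate 1 gave it a limma adjusted p of 0.116, leaving out replicate 2 of that genotype gave 0.0657, and leaving out OB-/-/SHP-/- replicate 2 gave 0.0765. It was 0.0979 when both arrays that stood apart were left out. Averaging the 4 Fabp4 probe sets gave -0.40 for it (limma adjusted p = 0.222) and 0.33 for leptin loss without SHP (limma adjusted p = 0.145). The other 3 Fabp4 probe sets had means under 4.82, the 40th percentile of all values on the arrays. Of these, 1451263_a_at rose by 1.47 with leptin loss and differed by -0.60 between OB-/-/SHP-/- and OB-/-, a difference that did not pass, while the others differed by 0.03 or less in both comparisons.

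Fabp2 (probe set 1418438_at), known as the intestinal form, read 10.22 and 10.29 in wild-type mice, 9.72 and 10.22 in SHP-/- mice, 10.93 and 11.04 in OB-/- mice, and 10.77 and 11.23 in OB-/-/SHP-/- mice. Arrays without leptin were higher, and the genotypes within each leptin state stood close together. Fabp2 rose 1.66-fold with leptin loss (0.73 ± 0.19, limma adjusted p = 0.0234) and 2.04-fold in mice without SHP (1.03 ± 0.19, limma adjusted p = 0.00674). SHP loss gave -0.29 with leptin (95% interval -0.71 to 0.13, limma adjusted p = 0.861) and 0.01 without it (95% interval -0.41 to 0.43, limma adjusted p = 0.991). The first rise was lost without any single array of either genotype, with limma adjusted p of 0.132 and 0.0924 without the wild-type arrays and 0.0852 and 0.138 without the OB-/- arrays, replicates 1 and 2 in turn, and of 0.0506 without both arrays that stood apart. The second was lost when OB-/-/SHP-/- replicate 2 was left out (0.0565) and when both arrays that stood apart were left out (0.0716). Against wild-type, OB-/-/SHP-/- was 0.74 higher (limma adjusted p = 0.0235), a call lost without wild-type replicate 1 (0.127) or 2 (0.0960) or OB-/-/SHP-/- replicate 2 (0.168).

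Fabp1 (probe set 1417556_at), the abundant liver form, read 13.29 and 13.19 in wild-type mice, 13.22 and 13.16 in SHP-/- mice, 13.42 and 13.38 in OB-/- mice, and 13.18 and 13.25 in OB-/-/SHP-/- mice. All 8 arrays lay within a narrow range and no comparison passed. The leptin-loss difference was 0.16 (95% interval -0.12 to 0.44, limma adjusted p = 0.473) with SHP and 0.02 (95% interval -0.26 to 0.31, limma adjusted p = 0.929) without it. Its second probe set gave 0.18 and 0.15 for these, and neither passed.

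Mogat1 (probe set 1419504_at), the monoacylglycerol acyltransferase, read 4.66 and 5.01 in wild-type mice, 4.87 and 4.54 in SHP-/- mice, 8.68 and 8.50 in OB-/- mice, and 6.30 and 7.17 in OB-/-/SHP-/- mice. Wild-type and SHP-/- overlapped near the dim end of the array, OB-/- was highest, and the OB-/-/SHP-/- arrays lay between and apart from each other. Leptin loss raised it 13.5-fold with SHP (3.76 ± 0.25, limma adjusted p = 2.9e-06) and 4.08-fold without SHP (2.03 ± 0.25, limma adjusted p = 0.000487). In mice without leptin, SHP loss lowered it 3.62-fold (-1.85 ± 0.25, limma adjusted p = 0.00261), and that call held under all 18 alternatives. In mice with leptin the SHP difference was -0.13 (95% interval -0.67 to 0.42, limma adjusted p = 0.967). The interaction, -1.73 ± 0.35, had a limma adjusted p of 0.0640 and so missed the threshold. It ranged from 0.00359 to 0.427 under the alternatives, passing with a variance trend (0.0369), without SHP-/- replicate 2 (0.0359) and without OB-/-/SHP-/- replicate 2 (0.00359). Mogat1 had 1 probe set.

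On the lipoprotein side, Vldlr (probe set 1434465_x_at), the receptor that brings triglyceride-rich particles to the cell, was the only gene of the 8 with its highest level in OB-/-/SHP-/-, apart from Fabp2, whose OB-/- and OB-/-/SHP-/- arrays overlapped. It read 5.80 and 6.28 in wild-type mice, 7.01 and 6.94 in SHP-/- mice, 7.06 and 6.91 in OB-/- mice, and 7.38 and 7.65 in OB-/-/SHP-/- mice. Wild-type was lowest, SHP-/- and OB-/- overlapped, and the arrays lacking both genes were highest. Vldlr rose 1.93-fold with leptin loss (0.95 ± 0.17, limma adjusted p = 0.00388). OB-/-/SHP-/- exceeded wild-type by 1.47 ± 0.17 (limma adjusted p = 0.000277). The SHP difference with leptin, 0.93 ± 0.17, missed the threshold (limma adjusted p = 0.0588), and passed with a variance trend (0.0377). SHP loss without leptin gave 0.53 ± 0.17 (limma adjusted p = 0.209) and leptin loss without SHP gave 0.54 ± 0.17 (limma adjusted p = 0.0736). The chosen probe set ends in x_at, a class that can bind related transcripts. Probe set 1417900_a_at rose by 1.15 in OB-/- against wild-type and by 1.81 in OB-/-/SHP-/- against wild-type. Probe set 1442169_at gave 0.47, which did not pass, and 1.12, which did, while 1451156_s_at gave -0.03 and -0.10.

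Lpl (probe set 1415904_at), the lipase that frees fatty acids from circulating lipoproteins and is normally low in adult liver, read 7.14 and 6.69 in wild-type mice, 7.33 and 6.76 in SHP-/- mice, 7.18 and 7.09 in OB-/- mice, and 6.98 and 7.13 in OB-/-/SHP-/- mice. The genotypes overlapped and no comparison passed. Leptin loss gave 0.22 with SHP (95% interval -0.22 to 0.66, limma adjusted p = 0.534) and 0.01 without SHP (95% interval -0.43 to 0.46, limma adjusted p = 0.977). The second Lpl probe set gave 0.34 and 0.13 for the same comparisons, and neither passed.

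**Figure D2:**
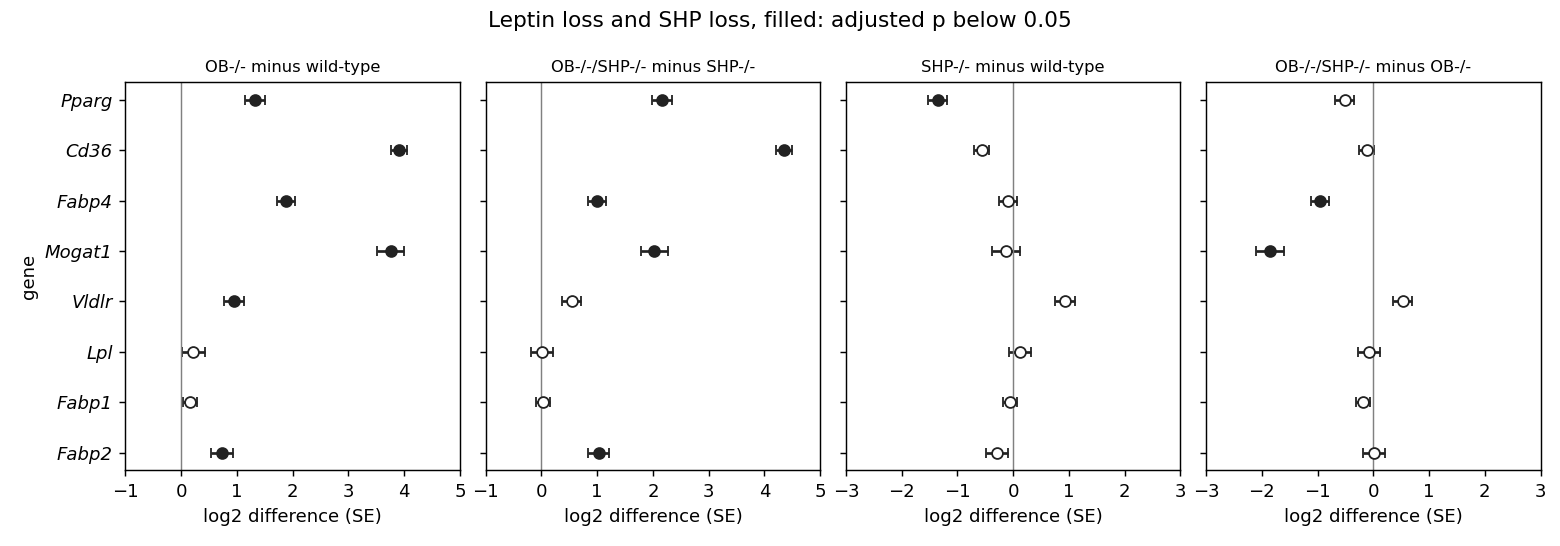
Log2 difference with its standard error for each gene in the leptin-loss comparisons (left pair) and the SHP-loss comparisons (right pair, on a shifted axis of the same span). Filled points have adjusted p below 0.05. Leptin loss gives filled points to the right for 6 and 5 of the 8 genes, and SHP loss gives filled points to the left for Pparg with leptin and for Fabp4 and Mogat1 without it.

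**Figure D3:**
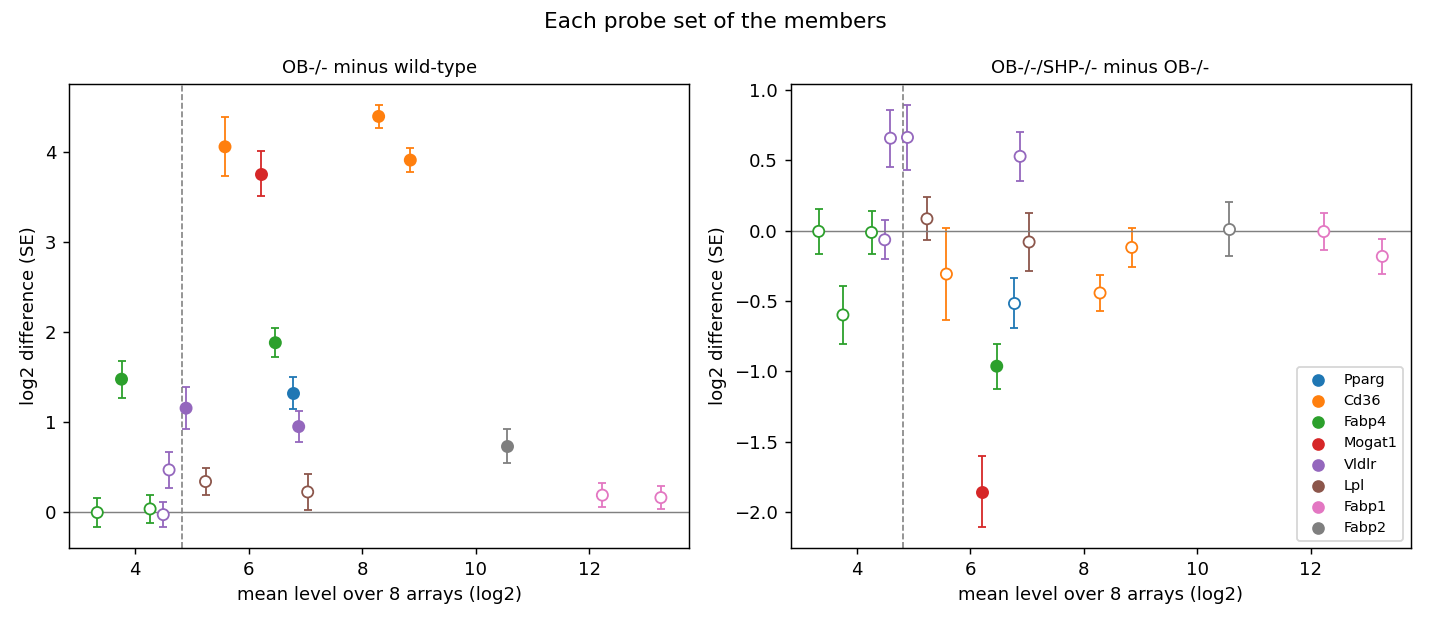
Log2 difference with its standard error against mean level for each of the 18 probe sets, for OB-/- against wild-type (left) and OB-/-/SHP-/- against OB-/- (right); the dashed line marks 4.82, the 40th percentile of all values on the arrays, and filled points have adjusted p below 0.05 over all probe sets. The 3 Cd36 probe sets lie together near 4 on the left, whereas on the left the Fabp4 probe sets spread from -0.01 to 1.88 and the Vldlr probe sets from -0.03 to 1.15.

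The wider pathway was followed in 5 lists, which were drawn up with earlier results of these data known and so give no independent support. Among PPAR gamma targets outside the 8 genes, 17 of 24 were measured. With leptin loss 10 rose and 1 fell, with a median difference of 0.78 against -0.01 over all genes. Cidea, a lipid droplet protein, rose by 6.40 ± 0.20, the phospholipid transfer protein Pltp by 3.90 ± 0.15, the galectin Lgals1 by 4.87 ± 0.28, and malic enzyme Me1, which supplies NADPH for lipid synthesis, by 2.52 ± 0.15. Angptl4, an inhibitor of lipoprotein lipase, was the target that fell, by 0.49 ± 0.14. In mice without SHP 10 rose and 0 fell with leptin loss (median 0.81 against 0.03 over all genes), and those with the smallest adjusted p were Me1 at 2.21, Fitm1, a lipid droplet assembly protein, at 2.26, Pltp at 2.03 and the droplet coat protein Plin4 at 2.23. Larger differences were those of Lgals1, at 3.55, and Cidec, at 3.02. Loss of SHP in mice without leptin lowered 6 of the 17 and raised 0 (median -0.34 against 0.01). These were Cidea (-4.52 ± 0.20), Pltp (-0.99 ± 0.15), Fitm1 (-0.85 ± 0.15), Lgals1 (-1.48 ± 0.28), the droplet fusion protein Cidec and the glycerol channel Aqp7. Of them, Cidea alone kept its call under all 18 alternatives among the 4 with the smallest adjusted p, and the count fell to 1 without either OB-/- array, to 2 without OB-/-/SHP-/- replicate 1 and to 2 without both arrays that stood apart. In mice with leptin, SHP loss raised 2, Pltp by 0.89 and the fatty acid desaturase Scd1 by 1.04 (median -0.02 against -0.03). This count was 0 without x_at and s_at probe sets and 0 with only the compared arrays. It was 1 with quantile normalisation, with dim genes left out and with the mean of probe sets. Those calls were fragile: 0 passed without either wild-type array, either OB-/- array or SHP-/- replicate 1, and 1 without SHP-/- replicate 2 or either OB-/-/SHP-/- array. The interaction passed for 2 targets, Cidea (-4.17 ± 0.29) and Pltp (-1.87 ± 0.21), and for 4 without SHP-/- replicate 2.

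**Figure D4:**
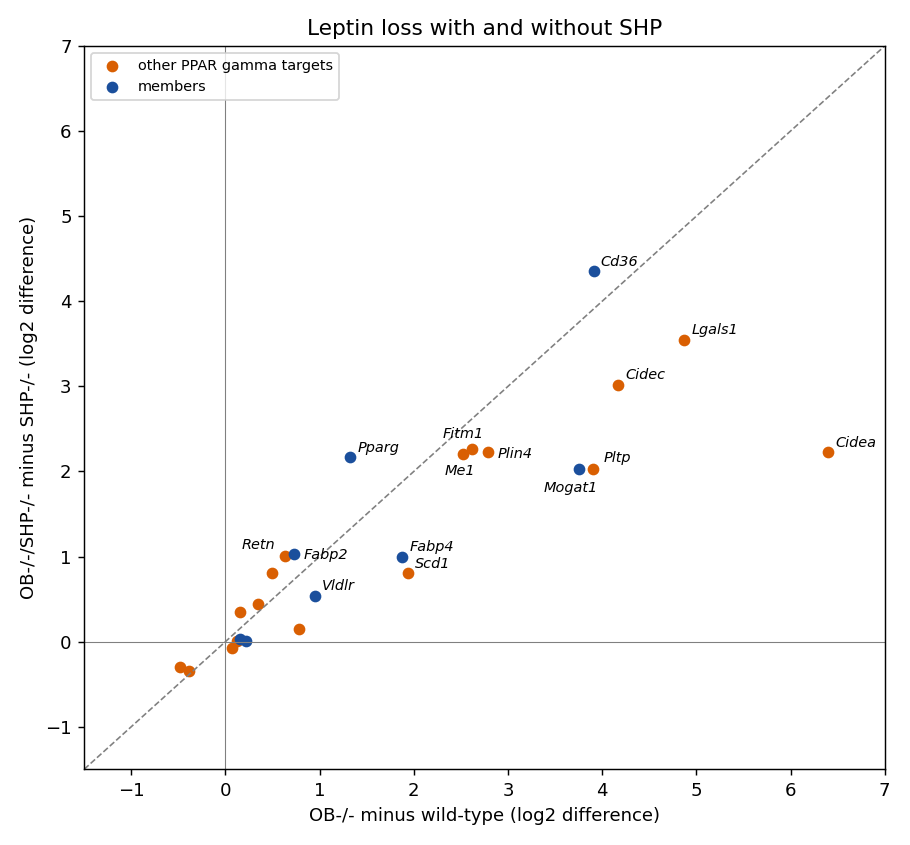
Leptin-loss difference (log2) without SHP on the vertical axis against that with SHP on the horizontal axis, for the 8 genes (blue) and the other 17 measured PPAR gamma targets (orange); the dashed line marks equal differences. Cd36 and Pparg lie above the line, while Cidea, Pltp, Lgals1, Cidec and Mogat1 lie below it; of these the difference from the line passed the test for Cidea and Pltp.

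Of 21 partners of PPAR gamma on the list, receptors, coactivators, corepressors and upstream factors, 18 were measured, and 7 fell, 1 rose and 10 did not pass in OB-/- against wild-type (median -0.37 against -0.01 over all genes). The coactivators Ppargc1a and Ppargc1b fell by 1.25 ± 0.15 and 1.22 ± 0.19. Rxra, the main RXR partner in liver, fell by 0.73 ± 0.14, and the Mediator subunit Med1 by 0.61 ± 0.14. Rxrg was the partner that rose, by 0.53. The count of 8 fell to 2 without wild-type replicate 1, to 5 without OB-/- replicate 1, to 3 without OB-/- replicate 2 and to 5 without both arrays that stood apart. The calls of Ppargc1a and Ppargc1b held under all 18 alternatives, while that of Rxra was lost with the mean of its probe sets, without wild-type replicate 1 and without OB-/- replicate 2. That of Med1 was lost with the mean of its probe sets, without wild-type replicate 1, without OB-/- replicate 1 and without both arrays that stood apart. In mice without SHP 4 fell (Nr0b2, Med1, Rxra and Crebbp) and 0 rose, and between 1 and 2 passed without any single array of those genotypes or of OB-/-. SHP loss moved 0 partners in limma with leptin, where 6 had an unadjusted p below 0.05, and 1 without it, Nr0b2 itself. Nr0b2 is also counted among the 4 that fell in mice without SHP, although it is the gene deleted in both genotypes of that comparison.

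Other genes of fatty acid uptake and binding, 16 of 18 measured, rose in part: 4 rose and 0 fell with leptin loss (median 0.16 against -0.01). They were the acyl-CoA binding protein Dbi (1.14 ± 0.14), Fabp7 (0.91 ± 0.14), the acyl-CoA synthetase Acsl5 (1.02 ± 0.16) and the fatty acid transport protein Slc27a4 (0.88 ± 0.14), and their calls held under all 18 alternatives. Slc27a4, Acsl5, Fabp7 and Dbi rose in mice without SHP too, where the caveolar protein Cav1 fell by 1.20 ± 0.27. That count of 5 became 3 without SHP-/- replicate 1 or OB-/-/SHP-/- replicate 2, and 1 without both arrays that stood apart. SHP loss moved 0 of the 16 with or without leptin in limma, and 0 and 2 had an unadjusted p below 0.05. With leptin 1 passed without SHP-/- replicate 2, and without leptin 1 passed without OB-/-/SHP-/- replicate 2.

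Lipases and lipoprotein receptors, 12 of 18 measured, moved in both directions with leptin loss, 2 up and 2 down (median 0.03 against -0.01). Endothelial lipase Lipg fell by 1.28 ± 0.14 and the remnant receptor Lrp1 by 1.10 ± 0.16, while lysosomal lipase Lipa rose by 0.94 ± 0.17 and monoacylglycerol lipase Mgll by 0.61 ± 0.14. In mice without SHP 4 rose and 2 fell. Lipg fell by 1.08 ± 0.14, and Lipe, Mgll and Pnpla2, the lipases of stored triglyceride, rose by 0.81, 0.70 and 0.64. That count of 6 became 2 without SHP-/- replicate 1 or OB-/-/SHP-/- replicate 2, 3 without SHP-/- replicate 2 and 1 without both arrays that stood apart. With SHP loss in mice without leptin, Lrp1 rose by 0.83 ± 0.16, a call lost without either OB-/- array or OB-/-/SHP-/- replicate 2. Of the triglyceride assembly enzymes other than Mogat1, 11 of 13 measured, 2 rose with leptin loss, Gpam by 0.77 and Mogat2 by 0.82 (median 0.04 against -0.01). Without wild-type replicate 2 or OB-/- replicate 1 that count was 0, and without wild-type replicate 1 or OB-/- replicate 2 it was 1. In mice without SHP 0 passed in limma and 1 had an unadjusted p below 0.05, and 1 passed without OB-/-/SHP-/- replicate 2.

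The liver was measured whole, so a change in the share of a cell type and a change in RNA per cell cannot be told apart. Several of the 8 genes are also expressed outside hepatocytes, and some markers of those cells moved with leptin loss or SHP loss. Of 14 macrophage markers 13 were measured, and 8 rose and 0 fell with leptin loss, where 7.58% of all genes rose and 9.36% fell. Among those that rose were Vsig4, Cd68 and Adgre1. The call of Adgre1 was lost without any single array of either genotype. Trem2 read 6.12 and 6.34 in wild-type mice and 5.82 and 5.84 in OB-/- mice. Itgam, dim on every array, read 4.03 and 4.02 against 3.76 and 3.50, and neither passed. In mice without SHP 1 rose with leptin loss, Mpeg1, and the count was 5 without SHP-/- replicate 1, 3 without OB-/-/SHP-/- replicate 1, 2 without replicate 2 of that genotype, and 3 without both arrays that stood apart. SHP loss raised 1 of the 13 in mice with leptin, Mpeg1 (median 0.79 against -0.03), where 0.226% of all genes rose. That call was lost without wild-type replicate 1. In mice without leptin SHP loss raised 2, Mpeg1 and Marco (median -0.06 against 0.01), where 1.26% of all genes rose. The Marco call was lost under 10 of 18 alternatives. The summed level of the 13 macrophage markers, on the log2 scale, was 10.40 to 10.43 in wild-type mice, 11.16 to 11.60 in SHP-/- mice, 11.76 to 11.77 in OB-/- mice and 11.91 to 12.23 in OB-/-/SHP-/- mice. Endothelial markers, 10 of 10 measured, summed to 9.44 to 9.81 in wild-type mice, 9.41 to 9.59 in SHP-/- mice, 9.98 to 10.10 in OB-/- mice and 9.90 to 9.95 in OB-/-/SHP-/- mice. With leptin loss 4 of them rose, among them Lyve1 by 3.31 and Pecam1 by 1.40, and 2 did so without wild-type replicate 2. Where SHP was absent 2 rose, Lyve1 and Pecam1, and 4 without OB-/-/SHP-/- replicate 1. The endothelial markers Kdr, Stab2, Egfl7, Tek, Tie1 and Vwf did not pass in OB-/- against wild-type. Of these, Vwf read 5.02 and 5.29 in wild-type mice and 5.03 and 4.16 in OB-/- mice. Stellate cell markers, 8 of 8 measured, summed to 9.42 to 9.45 in wild-type mice, 9.25 to 9.58 in SHP-/- mice, 9.66 to 9.75 in OB-/- mice and 9.25 to 9.51 in OB-/-/SHP-/- mice. Reln, the brightest of the 8, read 8.60 and 8.58 in wild-type mice and 8.34 and 8.21 in OB-/- mice, and did not pass. The collagens Col3a1, Col1a2 and Col1a1 rose with leptin loss, by 1.49, 1.16 and 0.68, and 0 of the 8 rose or fell with it in mice without SHP. Col3a1 fell by 1.19 in OB-/-/SHP-/- against OB-/-, a call lost when either OB-/- array, OB-/-/SHP-/- replicate 1 or both arrays that stood apart were left out. The part of these cells in the levels of the 8 genes was not tested.

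Of 9 adipocyte markers 6 were measured, summing to 13.11 to 13.26 in wild-type mice, 13.18 to 13.41 in SHP-/- mice, 13.44 to 13.55 in OB-/- mice and 13.30 to 13.41 in OB-/-/SHP-/- mice. Nearly all of that sum came from Car3 and Pck1, at 11.75 or above on every array, where the others stood at 7.12 or below. The sum therefore describes Car3 and Pck1 and not adipocyte markers as a group. Pck1 read 12.29 and 12.14 in wild-type mice and 11.90 and 11.75 in OB-/- mice, a difference that did not pass. With leptin loss 2 rose, Car3 by 0.80 and Retn by 0.63, and 1 did so without wild-type replicate 1 or OB-/- replicate 2. Where SHP was absent 2 rose, Retn by 1.01 and Lipe by 0.81, and 1 without OB-/-/SHP-/- replicate 2 or without both arrays that stood apart. Adiponectin (Adipoq, 2.79 to 3.07) and leptin (Lep, 3.16 to 3.53, the gene knocked out in the OB-/- lines) were dim on every array. Of 8 enterocyte markers, which bear on Fabp2, 6 were measured and 4 were dim on every array, Vil1 and Lct among them. Their sum was 11.73 to 12.14 in wild-type mice, 12.23 to 12.39 in SHP-/- mice, 12.71 to 12.78 in OB-/- mice and 13.07 to 13.23 in OB-/-/SHP-/- mice. Nearly all of it came from Apoa4, at 11.70 to 13.22, where the other measured markers read 4.87 or below. The sum therefore describes Apoa4 and not enterocytes. Apoa4, an apolipoprotein that liver also makes, rose with leptin loss by 0.82 and, in mice without SHP, by 0.84. The first of these calls was lost without wild-type replicate 2 and the second without both arrays that stood apart. Hepatocyte markers, 7 of 8 measured, summed to 16.00 to 16.09 in wild-type mice, 16.04 to 16.05 in SHP-/- mice, 15.84 to 15.95 in OB-/- mice and 15.99 to 16.02 in OB-/-/SHP-/- mice. With leptin loss 3 fell and 0 rose (median -0.34 against -0.01 over all genes): Tat by 0.65, Cps1 by 0.51, and Hnf4a by 0.76, whose sign turned with the mean of its probe sets and without x_at and s_at probe sets. That count was 1 without wild-type replicate 1 or OB-/- replicate 2. Pancreas markers, 8 of 10 measured, summed to 10.02 to 10.38 in OB-/- and to 8.23 to 8.63 in the other genotypes. The mean levels of Pparg, Cd36, Fabp4, Mogat1, Lpl and Fabp1 were also highest in OB-/-. Of the 8 pancreas markers 6 rose with leptin loss and 1, Cela1, fell. The brightest in OB-/- included Zg16 (8.96 and 8.95), Clps (7.95 and 7.15) and Prss2 (7.87 and 7.00). Clps, read by an a_at probe set, stood at 2.90 and 3.23 in wild-type mice. Its leptin-loss difference ranged from 2.55 to 4.89 over 17 alternatives. Zg16 and Prss2 were read by x_at probe sets. Without x_at and s_at probe sets their leptin-loss differences were -0.51 and 0.19, and neither passed. The part of these cells and tissues in the levels of the 8 genes was not tested.

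Genes whose profile over the 8 arrays was most like that of a member were ranked by the root mean square difference of log2 values after centring each profile on its own mean. This is a description, and genes of small range give small differences. For Pparg they were Treh (0.30), Gsta2 (0.36) and Inmt (0.42), and Fabp4 ranked 18th among 12392 other genes at 0.52. For Cd36 they were Ly6d (0.46), Lgals1 (0.60) and Gstm3 (0.63), with Mogat1 ranked 17th and Pparg 35th. For Fabp4 they were Hnmt (0.14), Car2 (0.21) and Abhd17a (0.21). For Mogat1 they were the lipid droplet gene Cidec (0.43), the water channel Aqp8 (0.46) and the cytochrome P450 Cyp2b10 (0.46), with Fabp4 ranked 36th, Pparg 51st and Cd36 55th. Vldlr was closest to 1810055G02Rik, Lgals3bp and Slc15a3 (0.22 to 0.23), and Fabp2 to Acot6, Gpd2 and Cfap36 (0.10 to 0.13). For each of these members the 3 nearest genes did not include another member. The member closest to Vldlr was Fabp2 at 0.51.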

How the data were processed

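The authors deposited a table of log2 expression values for 22690 probe sets on 8 Affymetrix arrays, with values from 2.20 to 14.19 from which the base of the log was read. Per the submitters' processing notes, R 2.15.0 was used; the background correction and probe summary were not given in those sources. Of the probe sets, 64 controls were left out, 20380 named a single gene, 691 several and 1555 none, and 20351 matched the RefSeq gene table. The brightest probe set by mean stood for each of 12393 genes. The members and gene lists were chosen with earlier results of these data known.

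With limma 3.58.1 (lmFit and eBayes; R 4.3.3; data.table version 1.17.8), 4 genotype means were fitted over the 8 arrays, leaving 4 residual and 7.16 prior degrees of freedom, with Benjamini-Hochberg adjustment over all genes and a threshold of 0.05. Genotypes came from the sample titles. The 6 comparisons were those between genotypes named in the text and the interaction. The fit was tested on simulated data before use. Named genes were the 8 members, Nr0b2, up to 4 genes per pathway list and comparison with the smallest adjusted p, cell type markers, and the 3 genes most like each member with a called comparison; other genes of these lists were named after their values were seen. Alternatives were quantile normalisation, equal medians, dim genes left out, the mean of probe sets, every probe set tested by itself, x_at and s_at probe sets left out, a variance trend, only the compared arrays, the replicate number as a block, and arrays left out. The number of arrays limits the precision: the median standard error of a difference was 0.15. Figures were drawn with matplotlib 3.10.9.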

Additional observations from a re-analysis of the deposited data

Results flagged for a closer look

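The effect of SHP loss differed between mice without and with leptin, by limma's interaction test over all genes, in 5 genes of the lists used here. Among PPAR gamma targets these were Cidea, where the effect was 4.17 lower on the log2 scale without leptin (interaction -4.17), and Pltp (-1.87). Both calls held under all 17 alternatives that could give an interaction. Among pancreas markers they were Clps (-3.13), Prss2 (-2.90) and Zg16 (-2.86). Without x_at and s_at probe sets the calls of Prss2 and Zg16 were lost (adjusted p = 0.958 and 0.904), and the sign of Zg16 turned. None of the 8 genes of the set was among these; the nearest was Mogat1, with an interaction of -1.73 and a limma adjusted p of 0.0640.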

How the results depend on the processing

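Over 48 results of the 8 genes and up to 18 alternatives each, 804 kept direction and side of the threshold, 19 lost the call, 4 gained it, and 29 turned sign, all of them small differences that passed in neither setting. Genes called fell or rose as follows. With a variance trend 2 were called in SHP-/- against wild-type and 1 in the interaction. In OB-/-/SHP-/- against OB-/- the count was 1 with the mean of probe sets and 1 without OB-/- replicate 1 and SHP-/- replicate 1 together. Leaving out each array in turn gave 0 to 1 in SHP-/- against wild-type, 1 to 2 in OB-/-/SHP-/- against OB-/-, 5 to 6 in OB-/- against wild-type, 4 to 5 in OB-/-/SHP-/- against SHP-/-, 0 to 1 in the interaction and 4 to 6 in OB-/-/SHP-/- against wild-type. A genotype left with a single array was assumed to vary like the others. With the replicate number as a block the counts were 1, 2, 6, 5, 0 and 6 in that order, and no call of the 8 genes changed; deviations of same-numbered arrays correlated at -0.11 to 0.20 between genotypes, so the numbers were not taken as pairs. Signs turned for Fabp2 in OB-/-/SHP-/- against OB-/- with quantile normalisation (-0.017), equal medians (-0.00504) and without both arrays that stood apart (-0.045), for Fabp1 (-0.015) and Lpl (-0.028) in OB-/-/SHP-/- against SHP-/- with equal medians, and with the mean of probe sets for Fabp4 in SHP-/- against wild-type (0.12), Lpl in OB-/-/SHP-/- against OB-/- (0.0011) and Fabp1 in OB-/-/SHP-/- against wild-type (0.076). Without both arrays that stood apart they turned for Lpl in SHP-/- against wild-type (-0.16), and for the interactions of Fabp2 (-0.0048) and Lpl (0.13). With 1 array left out, signs turned within -0.011 to 0.061 for Fabp1 and -0.28 to 0.30 for Lpl in OB-/-/SHP-/- against SHP-/-, -0.0746 to 0.022 for Fabp1 and -0.084 to 0.36 for Lpl in OB-/-/SHP-/- against wild-type, -0.22 to 0.24 for Fabp2 in OB-/-/SHP-/- against OB-/-, -0.0032 to 0.44 for Lpl in OB-/- against wild-type, -0.22 to 0.057 for Fabp4, -0.16 to 0.42 for Lpl and -0.30 to 0.047 for Mogat1 in SHP-/- against wild-type, and -0.50 to 0.080 for the interaction of Lpl; the Fabp2 interaction reached 0.55. Over all genes, counts moved by more than 1.5 times in several settings. SHP-/- against wild-type went from 40 to 68 with a trend, 23 with only the compared arrays, and 5 to 95 with 1 array left out. With 1 array left out, OB-/-/SHP-/- against OB-/- gave 80 to 298, OB-/- against wild-type 956 to 2234, OB-/-/SHP-/- against SHP-/- 600 to 1307, the interaction 32 to 113, and OB-/-/SHP-/- against wild-type, 1965 with all arrays, 820 to 1998, so the shares of all genes quoted beside the 8 genes moved with them. OB-/-/SHP-/- against SHP-/- went from 1311 to 615 with only the compared arrays. Without both arrays that stood apart, OB-/-/SHP-/- against OB-/- went from 265 to 119, OB-/- against wild-type from 2100 to 1121, OB-/-/SHP-/- against SHP-/- to 632 and the interaction from 68 to 39. The cause was not tested.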
